A study of Mus musculus with 9 samples.

Results

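Transcripts of 9 enzymes that carry cholesterol derivatives through the alternative route of bile acid synthesis and then attach the finished acid to an amino acid were followed in db/db mouse liver. The members were taken by gene name from a table of 28517 genes, with the count and FPKM columns of all 9 libraries. The list names enzymes of the pathway and sets no threshold on a measured value, though it was drawn up with earlier results of these data known. They are Cyp27a1, Cyp7b1, Hsd3b7, Akr1d1, Amacr, Acox2, Hsd17b4, Slc27a5 and Baat, and all 9 were among the 18142 genes that passed the filter on low counts. The db/db mouse carries a defective leptin receptor and becomes obese and diabetic. All 3 groups of animals carried this genotype and differed in the agent given over 12 weeks: PBS vehicle, the intestinal hormone FGF19 in its wild-type form (FGF19WT), or the variant FGF19ΔKLB. Each group held 3 liver libraries. The labels give no dose, age or sex, do not describe the sequence change in FGF19ΔKLB, and do not say that the replicates are separate animals, so p-values measure the spread between these samples, which may be technical.

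Bile acids are made from cholesterol in hepatocytes by a classical route, entered through the microsomal enzyme Cyp7a1, and by an alternative route, entered when the mitochondrial enzyme Cyp27a1 hydroxylates the sterol side chain and Cyp7b1 then hydroxylates the resulting oxysterol on the ring. Both routes share the ring enzymes Hsd3b7 and Akr1d1 and the shortening of the side chain in peroxisomes by Amacr, Acox2 and Hsd17b4. Slc27a5 and Baat activate bile acids with coenzyme A and join them to taurine or glycine. FGF19 reaches the liver from the intestine after a meal and is known to repress Cyp7a1 by binding FGFR4 together with β-klotho.

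Count totals were 65.1 to 73.3 M per library, which stand for about 16.3 to 18.3 M read pairs. Albumin, the main hepatocyte product, was abundant in all 9 libraries and made up 8.61% to 13.5% of all counts in the vehicle libraries. Its share was 8.67% to 16.4% in the FGF19WT libraries and 16.3% to 21.1% in the FGF19ΔKLB libraries. FGF19WT libraries 2 and 3 stood apart from the rest. In both of them 15 of 16 pericentral hepatocyte markers lay above, and 11 of 12 periportal markers below, every one of the other 7 libraries. Of 14 general hepatocyte markers 7 also lay below and 1 above. Over all genes 18.4% lay above and 19% below in this way. The labels describe all 3 FGF19WT libraries alike, and whether libraries 2 and 3 hold the same kind of liver tissue as the other 7 was not tested. The FGF19WT values of the 9 members are therefore given by library, and their fold changes also with library 1 as the only FGF19WT sample, whose spread is then assumed to be that of the other groups.

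With FGF19ΔKLB, the 2 oxysterol-entry enzymes Cyp27a1 and Cyp7b1 fell to 0.421 and 0.404 times the vehicle level, and 0 members rose, where 0.894% of genes did. That is 2 of 9 members called lower in edgeR at an adjusted p under 0.05, where 0.79% of the 17340 genes tested were called lower. All 9 log2 fold changes were negative, with a median of -0.56 against 0.00 over all genes. DESeq2 called 5 members lower (4.12% of all genes) and limma on FPKM 3 (2.82%). By CPM (counts per M, with TMM scaling), 7 of 9 members had all 3 FGF19ΔKLB libraries below all 3 vehicle libraries, an arrangement seen for 12.2% of genes in that direction. An unadjusted p under 0.05 was reached by 6 members and by 17.3% of all genes. Both calls rest on an error taken from the 6 libraries compared: with an error pooled over all 9 libraries, Cyp27a1 had an adjusted p of 0.44 and Cyp7b1 of 0.271 in edgeR, at log2 fold changes of -1.24 and -1.31, and 0.011% of genes were called. In bulk tissue, a change in cell composition and a change of a transcript per hepatocyte cannot be told apart.

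With FGF19WT, 0 of 9 members were called against vehicle in edgeR, where 0.00574% of 17430 genes were. At an unadjusted p under 0.05 there were 2 members, Amacr and Baat, beside 14.5% of all genes. DESeq2 and limma also called 0 members, beside 6.38% and 0.152% of all genes. The median of the 9 log2 fold changes was 0.05, 5 were positive and 4 negative. Only Baat had all 3 FGF19WT libraries on one side of all 3 vehicle libraries, an arrangement that 22.6% of genes showed in either direction. The 3 FGF19WT libraries did not behave as a group: libraries 2 and 3 lay outside the range of the other 7 libraries in 6 of 9 members, against 37.4% of all genes.

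Between the agents, FGF19ΔKLB against FGF19WT gave 0 called members in edgeR, with 0.00584% of 17123 genes called. An unadjusted p under 0.05 was reached by 4 members, Cyp27a1, Cyp7b1, Hsd3b7 and Amacr, and by 8.8% of all genes. DESeq2 called 2 members lower with FGF19ΔKLB, Cyp7b1 and Hsd3b7, and 2.38% of all genes lower, while limma on FPKM called 0 members and 0.00975% of genes. Those 2 members were also the only ones whose FGF19ΔKLB libraries all lay below the FGF19WT libraries, as 6.39% of genes did. This comparison shares its libraries with the other 2, so the 3 sets of values are given side by side and not as independent results.

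**Figure D1:**
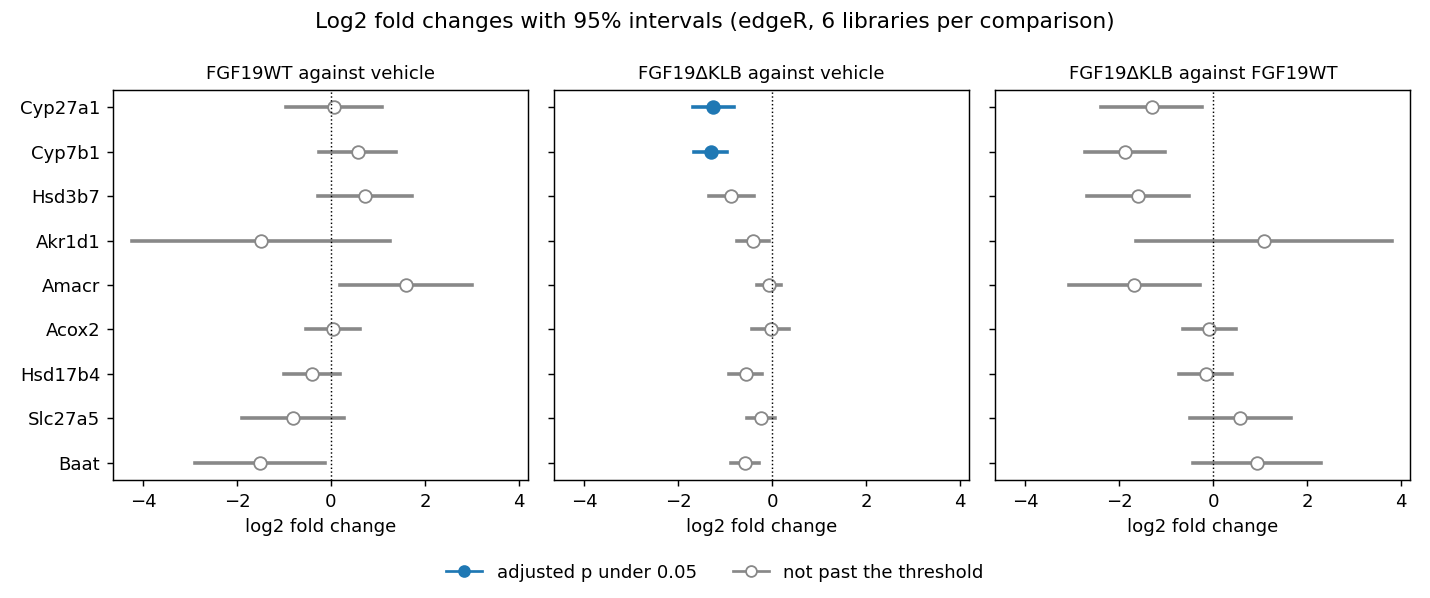
Log2 fold change of each enzyme (x axis) with its 95% interval from edgeR in the 3 comparisons, 6 libraries each. Filled points, Cyp27a1 and Cyp7b1 in FGF19ΔKLB against vehicle, are the 2 past an adjusted p of 0.05; the intervals that involve FGF19WT are the wider ones, up to -4.24 to 1.27 for Akr1d1.

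Per length of transcript (FPKM), the members spanned a wide range in vehicle liver, and their order did not follow their order in the pathway. Slc27a5, the bile acid coenzyme A ligase, stood highest at 346 ± 49.5 FPKM (SD, n = 3), above every other member in every vehicle library. Hsd17b4 at 135 ± 15.3, Baat at 125 ± 16.6, Cyp27a1 at 107 ± 9.5, Akr1d1 at 88.6 ± 12.0 and Hsd3b7 at 78.4 ± 6.90 FPKM followed, and each overlapped its neighbour in that order. Acox2 at 58.9 ± 7.54, Amacr at 44.6 ± 1.24 and Cyp7b1 at 5.75 ± 0.369 FPKM each lay below the member above them without overlap. Cyp7b1 ranked 4204 of 28517 genes by vehicle FPKM and Slc27a5 ranked 131. With FGF19ΔKLB the ends of the order held, Slc27a5 at 262 ± 8.98 and Cyp7b1 at 2.08 ± 0.194 FPKM, while Cyp27a1 at 40.9 ± 10.9 stood at rank 6 and overlapped both Acox2 and Hsd3b7. With FGF19WT, ranges were so wide that only 1 gap between neighbours, Hsd17b4 over Acox2, was free of overlap.

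**Figure D2:**
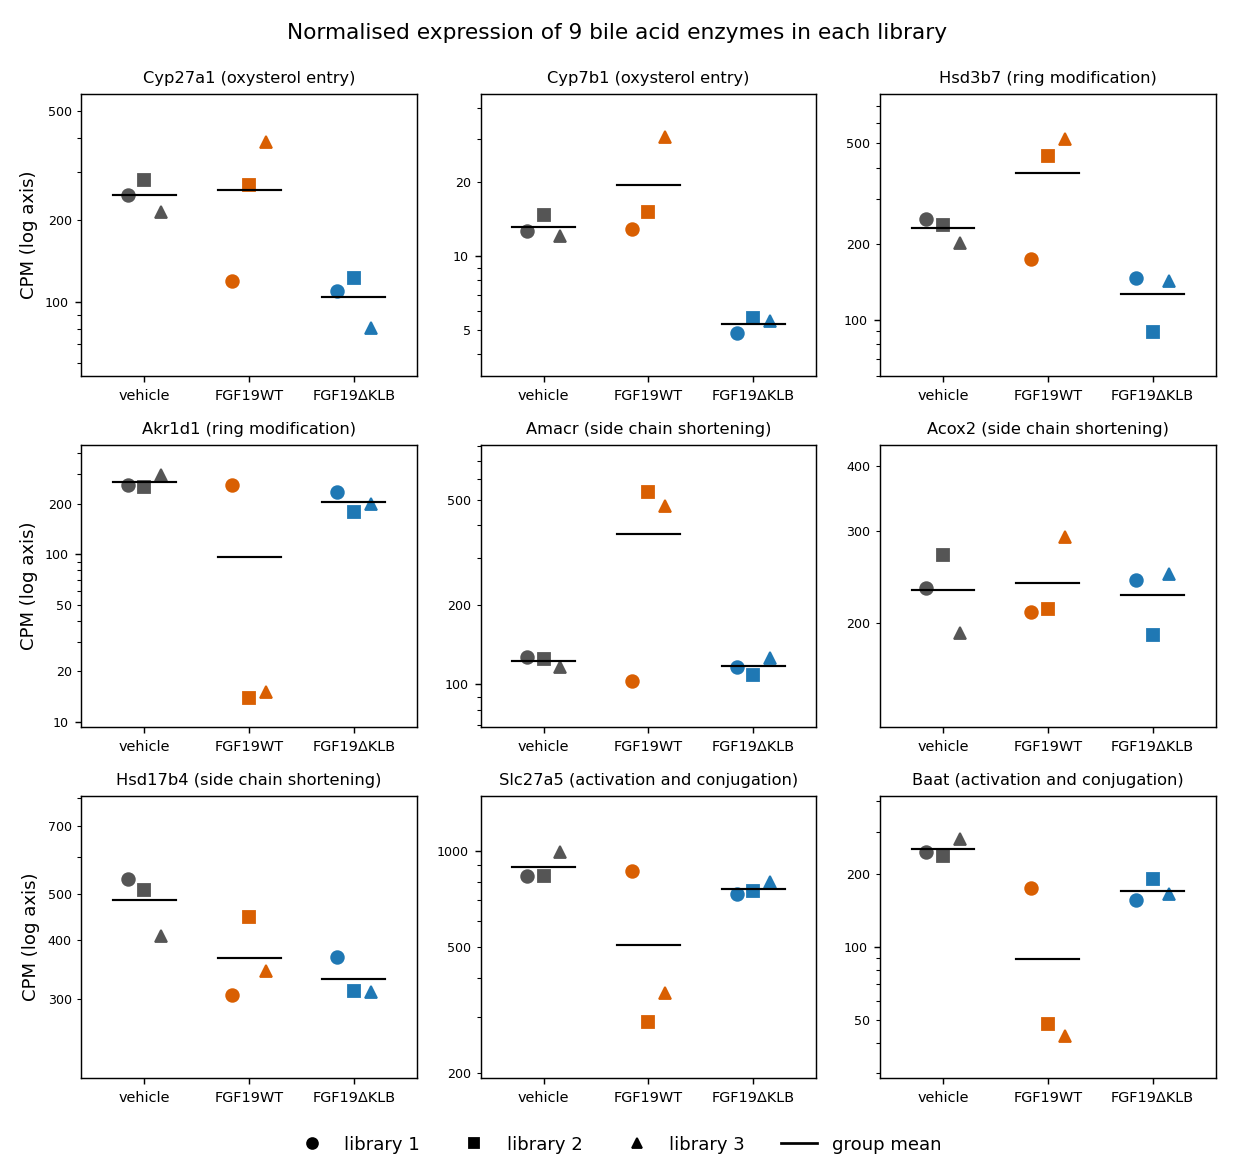
CPM (log axis) of the 9 enzymes in each of the 9 libraries, with symbols for library number and a line at the group mean. The FGF19ΔKLB libraries sit below all vehicle libraries for every enzyme except Amacr and Acox2, and FGF19WT libraries 2 and 3 sit far from FGF19WT library 1 for Akr1d1, Amacr, Slc27a5 and Baat.

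Cyp27a1, the sterol 27-hydroxylase of the inner mitochondrial membrane, lies on the plus strand of chromosome 1 from 74713574 to 74737892 (GRCm38). Its level was 247, 279 and 215 CPM in the vehicle libraries and 109.6, 123 and 80.4 CPM in the FGF19ΔKLB libraries. The FGF19ΔKLB values all lay under the lowest vehicle value, and Cyp27a1 fell by 1.25 on the log2 scale (SE 0.186, 95% interval -1.68 to -0.81, edgeR adjusted p = 0.028). With FGF19WT the libraries stood at 119, 268 and 386 CPM. Library 1 lay inside the FGF19ΔKLB range, library 2 lay inside the vehicle range and library 3 above it. FGF19WT against vehicle gave a log2 fold change of 0.06 (SE 0.425, edgeR adjusted p = 0.946), and FGF19ΔKLB against FGF19WT gave -1.31 (SE 0.443, edgeR adjusted p = 0.516). When FGF19WT library 1 was left as the only FGF19WT sample, its log2 difference from vehicle was -1.05 (edgeR adjusted p = 0.358), and FGF19ΔKLB against it gave -0.20 (edgeR adjusted p = 0.967). The difference between the agents thus rested on FGF19WT libraries 2 and 3.

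Cyp7b1, the oxysterol 7α-hydroxylase of the endoplasmic reticulum, lies on the minus strand of chromosome 3 from 18071950 to 18243338. It was measured from the fewest counts of the 9 members in vehicle and FGF19ΔKLB liver, 334 to 1005 per library. Vehicle libraries stood at 12.7, 14.7 and 12.1 CPM and FGF19ΔKLB libraries at 4.90, 5.61 and 5.49 CPM. The groups were tight and well apart, and Cyp7b1 fell by 1.31 on the log2 scale (SE 0.150, 95% interval -1.66 to -0.96, edgeR adjusted p = 0.0147). FGF19WT libraries stood at 12.9, 15.2 and 30.4 CPM, within or above the vehicle range and all above the FGF19ΔKLB libraries. Against vehicle the FGF19WT log2 fold change was 0.57 (SE 0.342, edgeR adjusted p = 0.463). It was 0.10 without FGF19WT library 3 (edgeR adjusted p = 0.886) and -0.03 with library 1 as the only FGF19WT sample (edgeR adjusted p = 0.996). Against FGF19WT the FGF19ΔKLB value was -1.88 (SE 0.355, 95% interval -2.74 to -1.02, edgeR adjusted p = 0.512). With FGF19WT library 1 alone this difference was -1.28 (edgeR adjusted p = 0.154).

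The calls for the 2 entry enzymes depended on single libraries. Cyp7b1 remained called in 4 of the 6 fits that left out a library, and Cyp27a1 in 1 of 6. Without vehicle library 1 the edgeR adjusted p was 0.0587 for Cyp7b1 and 0.0998 for Cyp27a1, and without FGF19ΔKLB library 1 it was 0.0558 and 0.0898. Cyp27a1 also lost its call without vehicle library 2 (edgeR adjusted p = 0.0758), without vehicle library 3 (0.0568) and without FGF19ΔKLB library 3 (0.0554), while its log2 fold change stayed between -1.38 and -1.09. The log2 fold change of Cyp7b1 stayed between -1.36 and -1.22.

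Sequence upstream of the start was available for 4 of 8 members looked up, from RefSeq on GRCm38.p6, and is shown for Cyp27a1, the more abundant of the 2 called members, and for Akr1d1, the member with the widest range over the libraries. Each run holds 240 bases, from 250 to 11 bases before the RefSeq start, 5′ to 3′ on the gene's strand. Capitals mark every match, on either strand, to CCAAT or to AGGTCA, the hexamer that nuclear receptors bind. Cyp27a1 (chr1:74713285-74713524) holds CCAAT on the opposite strand, with matches that begin 71 and 34 bases before the start, and Akr1d1 (chr6:37529923-37530162) holds AGGTCA on the opposite strand at 232 and 210 bases.
Cyp27a1: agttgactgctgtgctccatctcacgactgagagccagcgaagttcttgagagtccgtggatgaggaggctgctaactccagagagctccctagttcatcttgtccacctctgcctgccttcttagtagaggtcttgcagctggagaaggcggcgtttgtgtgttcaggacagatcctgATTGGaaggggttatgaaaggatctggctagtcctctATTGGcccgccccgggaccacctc
Akr1d1: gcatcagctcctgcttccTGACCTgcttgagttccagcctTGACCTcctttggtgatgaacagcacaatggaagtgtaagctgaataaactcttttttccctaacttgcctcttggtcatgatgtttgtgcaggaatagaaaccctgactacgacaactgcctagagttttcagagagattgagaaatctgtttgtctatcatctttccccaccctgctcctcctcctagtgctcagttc
The Cyp27a1 run has a GC content of 55.0% with 7 CpG and the Akr1d1 run 46.2% with 1 CpG, against medians of 52.1% and 5 over 32851 promoters. CCAAT occurs in 33.0% and AGGTCA in 13.5% of these promoters over the same window. The search also took, on both strands, the HNF4A core CAAAGTC, the HNF1 element GTTAAT, the TCF and LEF element CTTTGAT, the TATA box as TATAAA, the E-box CACGTG, the AP-1 element TGAGTCA and the ETS element CCGGAAG. These letters were not in either run. A match describes the letters and shows no bound factor.

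Hsd3b7, which oxidises the 3β-hydroxyl group of the ring in both routes, lies on the plus strand of chromosome 7 from 127800604 to 127803802. It stood at 251, 238 and 201 CPM in vehicle, at 175, 446 and 521 CPM with FGF19WT and at 146, 89.9 and 142 CPM with FGF19ΔKLB. FGF19WT libraries 2 and 3 were the highest of the 9, FGF19WT library 1 lay under the vehicle range, and all FGF19ΔKLB libraries lay under both other groups. The log2 fold change of FGF19ΔKLB against vehicle was -0.87 (SE 0.204, 95% interval -1.34 to -0.39, edgeR adjusted p = 0.0845). DESeq2 and limma on FPKM placed it past the threshold, with adjusted p = 0.00443 and 0.0384. Against vehicle, FGF19WT gave 0.73 (SE 0.416, edgeR adjusted p = 0.445). FGF19ΔKLB against FGF19WT gave -1.60 (SE 0.451, edgeR adjusted p = 0.512). With library 1 as the only FGF19WT sample these values were -0.40 and -0.47 (edgeR adjusted p = 0.874 and 0.895). Hsd3b7 overlaps 9430064I24Rik, an unconfirmed transcript on the other strand, by 2159 bases, and lies wholly inside Gm49388 on its own strand. How strand was used in counting is not given in the sources used here, so reads of these genes cannot be told apart. 9430064I24Rik stood between 2.99 and 17.6 FPKM and was highest in the same 2 FGF19WT libraries.

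Akr1d1, the 5β-reductase that gives the sterol ring its bent shape, lies on the plus strand of chromosome 6 from 37530173 to 37568815. It stood at 259, 252 and 299 CPM in vehicle and at 235, 178 and 199 CPM with FGF19ΔKLB. FGF19WT library 1, at 260.2 CPM, was inside the vehicle range, whereas libraries 2 and 3 held 14.0 and 15.0 CPM, the lowest values of the 9. FGF19WT against vehicle gave a log2 fold change of -1.49 with an SE of 1.14 (95% interval -4.24 to 1.27, edgeR adjusted p = 0.542). It was -2.64 by limma on FPKM (adjusted p = 0.315) and -3.04 with the replicate number as a block (edgeR adjusted p = 0.466). Without FGF19WT library 1 it was -4.22 (edgeR adjusted p = 0.000274), and with library 1 as the only FGF19WT sample it was -0.05 (edgeR adjusted p = 0.992). FGF19ΔKLB against vehicle gave -0.41 (SE 0.143, edgeR adjusted p = 0.212), with no overlap between the groups, and FGF19ΔKLB against FGF19WT gave 1.07 (SE 1.13, edgeR adjusted p = 0.781), or -0.36 against library 1 alone (0.895). A processed pseudogene, Gm7463, lies inside Akr1d1 on the same strand and stood at 1.19 to 18.0 FPKM.

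Amacr, the racemase that turns the side chain into the form that peroxisomal oxidases accept, lies on the plus strand of chromosome 15 from 10981756 to 10996626. It stood at 127, 124 and 117 CPM in vehicle and at 117, 109 and 126 CPM with FGF19ΔKLB, 2 overlapping groups. FGF19WT libraries stood at 104, 537 and 475 CPM, so library 1 was the lowest of the 9 and libraries 2 and 3 the highest. The FGF19WT log2 fold change against vehicle was 1.60 (SE 0.581, 95% interval 0.20 to 3.01, edgeR adjusted p = 0.309). It was 2.04 without library 1 (edgeR adjusted p = 0.00075) and -0.24 with library 1 as the only FGF19WT sample (edgeR adjusted p = 0.841). FGF19ΔKLB against vehicle gave -0.07, with an interval of -0.32 to 0.18 (edgeR adjusted p = 0.789), and FGF19ΔKLB against FGF19WT gave -1.68 (SE 0.582, edgeR adjusted p = 0.525), or 0.17 against library 1 alone (0.934). By FPKM, which lacks TMM scaling and placed the median gene 0.10 lower in FGF19ΔKLB than in vehicle, the Amacr groups no longer overlapped, at 43.5 to 45.9 FPKM in vehicle and 37.2 to 38.6 with FGF19ΔKLB.

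Acox2, the branched-chain oxidase of bile acid side chains, lies on the minus strand of chromosome 14 from 8225511 to 8259353. It stood at 234, 269.6 and 191.5 CPM in vehicle, 210.4, 213 and 292 CPM with FGF19WT, and 242, 190 and 249 CPM with FGF19ΔKLB. All 3 groups overlapped. Acox2 had log2 fold changes of 0.05 for FGF19WT (95% interval -0.53 to 0.62, edgeR adjusted p = 0.932) and -0.03 for FGF19ΔKLB against vehicle (95% interval -0.43 to 0.36, edgeR adjusted p = 0.947). Between the agents it was -0.08 (edgeR adjusted p = 0.918). With library 1 as the only FGF19WT sample it was -0.14 against vehicle and 0.10 between the agents (edgeR adjusted p = 0.969 and 0.99).

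Hsd17b4, the bifunctional enzyme that carries the shortening on after Acox2, lies on chromosome 18 from 50128201 to 50196269, and it also acts on very long and branched fatty acids. It stood at 539.5, 510.5 and 409 CPM in vehicle, 305, 447 and 344 CPM with FGF19WT, and 367, 311 and 310.3 CPM with FGF19ΔKLB. The FGF19ΔKLB libraries lay under all vehicle libraries, and FGF19WT library 2 overlapped the vehicle range. Against vehicle, the log2 fold change was -0.56 for FGF19ΔKLB (SE 0.150, edgeR adjusted p = 0.115) and -0.41 for FGF19WT (SE 0.249, edgeR adjusted p = 0.465). DESeq2 gave an adjusted p of 0.0171 for Hsd17b4 in FGF19ΔKLB against vehicle. FGF19ΔKLB against FGF19WT gave -0.16 (edgeR adjusted p = 0.842). For library 1 as the only FGF19WT sample, Hsd17b4 differed from vehicle by -0.67 (edgeR adjusted p = 0.53), and FGF19ΔKLB from that library by 0.11 (0.984).

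Slc27a5 lies on the minus strand of chromosome 7 from 12988346 to 12998192. It stood at 837, 834 and 992 CPM in vehicle and at 729.5, 747 and 797 CPM with FGF19ΔKLB, close but not overlapping. With FGF19WT, library 1 at 868 CPM was inside the vehicle range and libraries 2 and 3, at 289.8 and 357 CPM, were under all other libraries. The log2 fold change against vehicle was -0.81 for FGF19WT (SE 0.449, edgeR adjusted p = 0.439), -1.46 without library 1 (edgeR adjusted p = 0.00442) and -0.03 with library 1 as the only FGF19WT sample (edgeR adjusted p = 0.995). It was -0.23 for FGF19ΔKLB against vehicle (95% interval -0.53 to 0.07, edgeR adjusted p = 0.41) and 0.58 for FGF19ΔKLB against FGF19WT (edgeR adjusted p = 0.72), which was -0.20 against library 1 alone (0.934).

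Baat, the bile acid coenzyme A to amino acid N-acyltransferase, lies on the minus strand of chromosome 4 from 49489422 to 49506557. It was the only member for which every library of either agent lay under every vehicle library. Over all genes, 11.6% lay under vehicle in this way with FGF19WT and 12.2% with FGF19ΔKLB. The share that did so with both was not counted. Vehicle stood at 247, 237 and 281 CPM, FGF19WT at 176, 48.2 and 43.0 CPM, and FGF19ΔKLB at 157, 191 and 165 CPM. FGF19WT library 1 sat among the FGF19ΔKLB libraries, and libraries 2 and 3 far under them. The log2 fold change against vehicle was -1.52 for FGF19WT (SE 0.574, 95% interval -2.90 to -0.13, edgeR adjusted p = 0.319) and -0.58 for FGF19ΔKLB (SE 0.129, 95% interval -0.88 to -0.28, edgeR adjusted p = 0.0743), so neither passed the threshold. DESeq2 gave an adjusted p of 0.00298 for Baat in FGF19ΔKLB against vehicle. With FGF19WT library 1 as the only FGF19WT sample the difference was -0.54 (edgeR adjusted p = 0.586), and without that library it was -2.49 (edgeR adjusted p = 0.000634). FGF19ΔKLB against FGF19WT gave 0.93 (SE 0.565, edgeR adjusted p = 0.662), or -0.04 against library 1 alone (0.996).

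**Figure D3:**
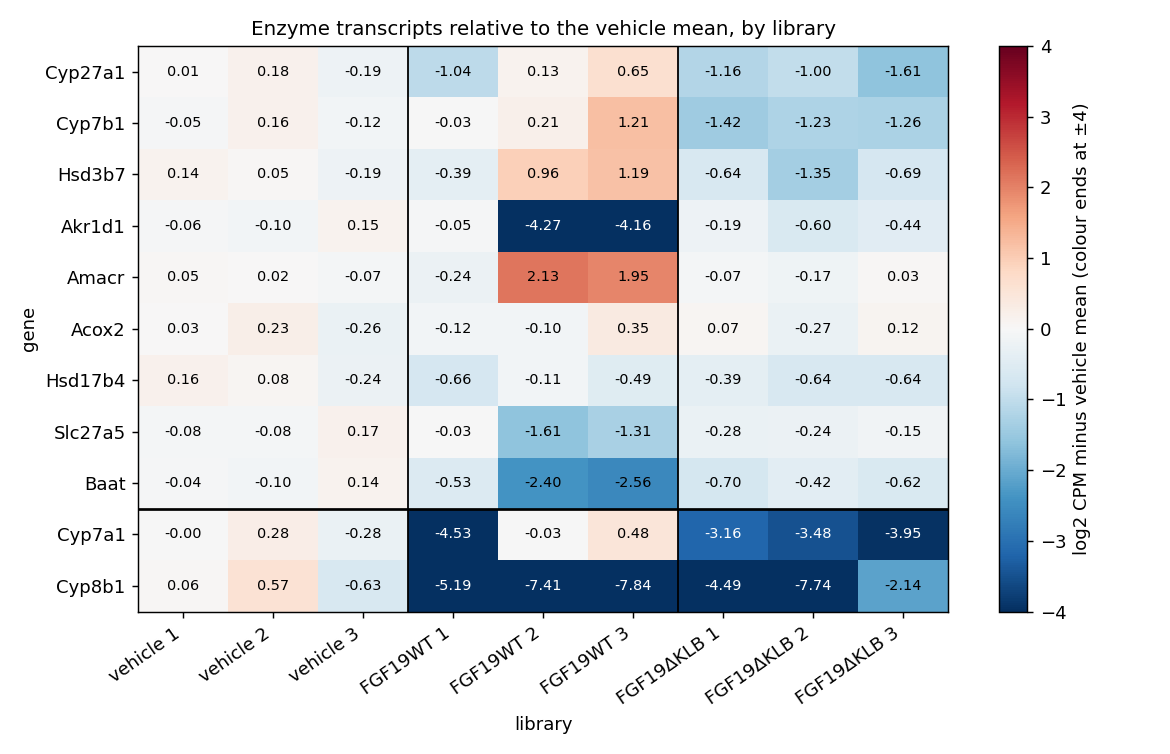
Log2 CPM of each enzyme minus its vehicle mean (colour, ending at ±4, with the value printed) in each of the 9 libraries, with the classical enzymes Cyp7a1 and Cyp8b1 under the line. In FGF19WT libraries 2 and 3 Akr1d1 stands at -4.27 and -4.16 and Amacr at 2.13 and 1.95, while Cyp7b1 stands between -1.42 and -1.23 in the FGF19ΔKLB libraries.

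Library 1 and libraries 2 and 3 of the FGF19WT group gave unlike values for most members. Leaving out FGF19WT library 1 gave 5 called members against vehicle in edgeR: Hsd3b7 and Amacr higher, Akr1d1, Slc27a5 and Baat lower, where 25.5% of all genes were called. In FGF19ΔKLB against FGF19WT it gave 7, all but Acox2 and Hsd17b4, where 15.8% of genes were called. With FGF19WT library 1 as the only FGF19WT sample, 0 members were called in either comparison (0.1% and 0.0352% of genes in edgeR), and all 9 log2 differences from vehicle were negative, with a median of -0.24 against -0.02 over all genes. The members that stood apart in FGF19WT libraries 2 and 3 fell on both sides: Cyp7b1, Hsd3b7 and Amacr above the other 7 libraries, as 18.4% of all genes, and Akr1d1, Slc27a5 and Baat below them, as 19%.

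Markers of liver zones moved with these differences. The 16 pericentral markers summed to 6278 to 10790 CPM in vehicle, 6845 in FGF19WT library 1, 33970 to 37280 in FGF19WT libraries 2 and 3, and 2956 to 4918 with FGF19ΔKLB. Glul, the defining pericentral marker, stood at 549 to 999.6 CPM in vehicle, 185 in FGF19WT library 1, 12680 to 14760 in libraries 2 and 3, and 224 to 364 with FGF19ΔKLB. The 12 periportal markers summed to 7085 to 9747 CPM in vehicle, 9392 in FGF19WT library 1, 245 to 276 in libraries 2 and 3, and 7080 to 7917 with FGF19ΔKLB. Cyp2f2, the defining periportal marker, stood at 491 to 584 CPM in vehicle and 306 in FGF19WT library 1. It stood at 4.83 to 7.39 CPM in libraries 2 and 3. With FGF19ΔKLB it stood at 122 to 489 CPM, at its highest just under the vehicle range. The periportal list did not move as a whole with FGF19ΔKLB. Against vehicle 6 of its log2 fold changes were positive and 6 negative, with a median of -0.06, and 0 were called in edgeR. In FGF19ΔKLB against vehicle all 16 pericentral markers had a negative log2 fold change, with a median of -1.06, and 2 of them were called, Slc1a2 and Oat. These 2 markers, a glutamate transporter and an aminotransferase of ornithine, fell by 2.18 each (edgeR adjusted p = 0.0275 and 0.043). The part of zonal composition in the member values was not tested.

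Markers of other cells also differed between vehicle and FGF19ΔKLB. The 14 hepatocyte markers summed to 145200 to 199400 CPM in vehicle and 256500 to 349000 with FGF19ΔKLB. Albumin alone, a large part of these sums, stood at 79520 to 135900 CPM in vehicle and 168000 to 248900 with FGF19ΔKLB. Of the 14, 11 had a positive and 3 a negative log2 fold change, and 0 were called in edgeR. Among 12 lymphocyte markers 1 was called, Cd8a of cytotoxic T cells, which fell by 3.29 (edgeR adjusted p = 0.0187). The 12 lymphocyte markers summed to 103 to 251 and 24.7 to 54.4 CPM, the 12 stellate cell markers to 424 to 492 and 167 to 327, and the 12 sinusoidal endothelial markers to 222 to 264 and 126 to 208. Kupffer cell markers, 14 genes, overlapped at 278 to 411 and 238 to 299.9 CPM, as did 12 cholangiocyte markers at 101 to 121 and 87.3 to 108. In FGF19WT libraries 2 and 3 the Kupffer cell sum was 38.3 to 84.1 CPM, with its defining marker Clec4f at 1.55 to 5.27. The sums there were also low for sinusoidal endothelial (71.7 to 91.0 CPM), lymphocyte (5.03 to 5.73) and cholangiocyte markers (71.0 to 89.5). The stellate cell sum, 233 to 275 CPM, was under vehicle, but most of it came from Reln. This gene had 175 CPM in library 2 and 212 in library 3, while the vehicle libraries had 36.2 to 44.5. Of the 12 stellate markers, 8 lay below and 1, Reln, above every one of the other 7 libraries. Lrat, the defining stellate marker, was down to 0.999 CPM in library 2 and 0.450 in library 3, with 11.8 to 19.5 in the vehicle libraries. Cell cycle genes, 20 in number, summed to 41.0 to 44.2 CPM in vehicle, 55.6 in FGF19WT library 1, 226 to 295 in FGF19WT libraries 2 and 3, and 47.7 to 70.4 with FGF19ΔKLB. Of these, 1 was called in FGF19ΔKLB against vehicle, Mki67, which rose by 2.54 (edgeR adjusted p = 0.018). Neither Cyp27a1 nor Cyp7b1 is among these lists, and the part of cell composition in their change was not tested.

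The classical route gave the frame for the alternative one. Cyp7a1 stood at 84.9, 103 and 70.0 CPM in vehicle and at 9.49, 7.61 and 5.47 CPM with FGF19ΔKLB, and fell by 3.52 on the log2 scale (SE 0.249, edgeR adjusted p = 0.00606, 0.358 with the error of all 9 libraries). FGF19WT libraries stood at 3.66, 83.4 and 118 CPM, so library 1 lay under the FGF19ΔKLB libraries and the other two at vehicle level or above. FGF19WT against vehicle gave -0.32 for Cyp7a1 (edgeR adjusted p = 0.882), and library 1 as the only FGF19WT sample gave -4.55 (edgeR adjusted p = 0.0155). Cyp8b1, the sterol 12α-hydroxylase that leads to cholic acid, stood at 219, 311 and 136 CPM in vehicle. Its values were 5.71, 1.21 and 0.885 CPM in the FGF19WT libraries and 9.34, 0.957 and 47.6 CPM in the FGF19ΔKLB libraries. Its log2 fold change was -6.41 for FGF19WT and -3.53 for FGF19ΔKLB, not past the threshold in edgeR (adjusted p = 0.236 and 0.244), though neither group overlapped vehicle.

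Within each library, transcripts of the 2 routes were compared as the FPKM ratio of Cyp7b1 to Cyp7a1, which does not measure bile acid synthesis by either route. With FGF19ΔKLB both transcripts were lower in mean, Cyp7b1 at 2.08 against 5.75 FPKM in vehicle. Cyp7a1 fell further, to 1.535 against 19.4 FPKM. The ratio was 0.289, 0.275 and 0.334 in vehicle, 0.993, 1.42 and 1.94 with FGF19ΔKLB, and 6.78, 0.351 and 0.496 with FGF19WT. Every library of either agent was above every vehicle library, and the highest value was that of FGF19WT library 1. On the log2 scale the difference from vehicle was 2.23 for FGF19ΔKLB and 1.83 for FGF19WT (exact two-sided permutation test, p = 0.1 each, the smallest that 3 against 3 libraries allow, 0.15 adjusted over 9 ratio tests). The FGF19WT difference ran from 0.48 without library 1 to 2.62 without library 2, so most of it rested on library 1. FGF19ΔKLB and FGF19WT overlapped, with a difference of 0.40 (exact permutation p = 0.9).

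The ratio of Cyp7b1 to Cyp27a1, the 2 entry enzymes, was 0.0516, 0.0528 and 0.0566 in vehicle and 0.0447, 0.0457 and 0.0684 with FGF19ΔKLB, overlapping values with a log2 difference of -0.05 (exact permutation p = 1). With FGF19WT it was 0.108, 0.0568 and 0.0791, each just or well above vehicle, with a log2 difference of 0.55 (exact permutation p = 0.1, adjusted 0.15) that was 0.32 without library 1. The ratio of Baat to Slc27a5, the transferase to the ligase, was 0.372, 0.357 and 0.356 in vehicle. It was 0.254, 0.209 and 0.151 with FGF19WT and 0.270, 0.321 and 0.260 with FGF19ΔKLB. The 3 groups did not overlap, though FGF19WT library 1 at 0.254 was just under FGF19ΔKLB library 3 at 0.260. The log2 differences of this ratio were -0.85 for FGF19WT and -0.36 for FGF19ΔKLB against vehicle and 0.50 between the agents (exact permutation p = 0.1 and adjusted 0.15 for each). Without 1 library at a time these ran from -1.02 to -0.65, from -0.45 to -0.29 and from 0.29 to 0.67.

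**Figure D4:**
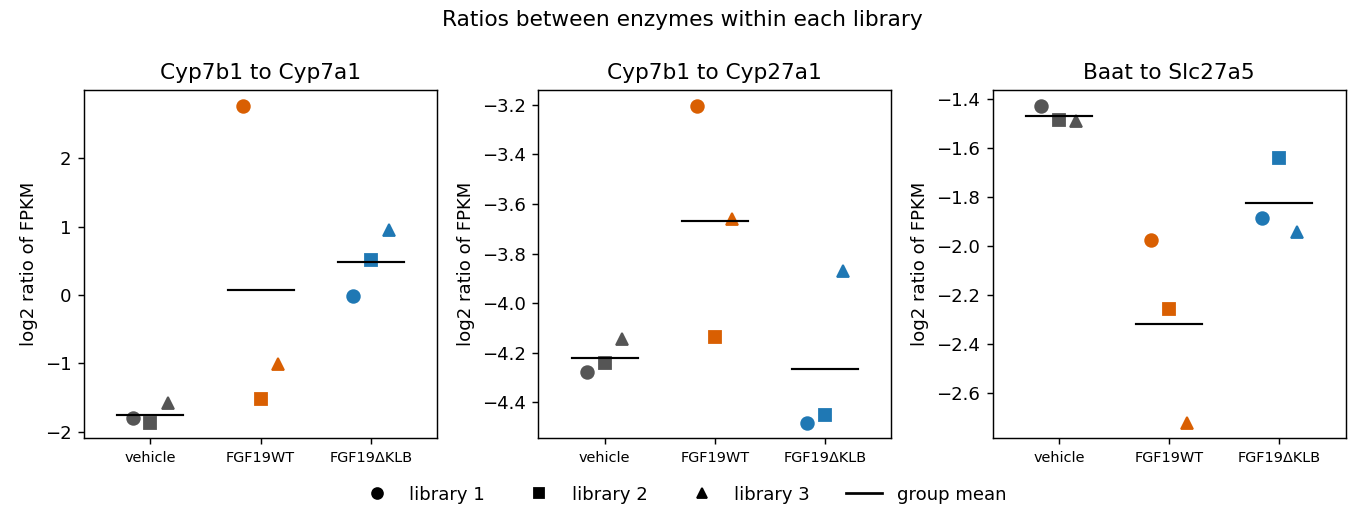
Log2 ratio of FPKM between enzymes in each library (y axis) for Cyp7b1 to Cyp7a1, Cyp7b1 to Cyp27a1 and Baat to Slc27a5, with symbols for library number and lines at the group mean. All 6 treated libraries lie above vehicle in the first panel and below it in the third.

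Few other genes of the pathway were called, and the lists held 0 called genes in edgeR when the error was pooled over all 9 libraries. Of 12 further genes of bile acid synthesis, Cyp7a1 and Cyp8b1 among them, 11 were tested in FGF19ΔKLB against vehicle, with 1 called lower, Cyp7a1, 8 negative values and a median log2 fold change of -0.48. In FGF19WT against vehicle 0 of 12 were called, with a median of -0.02 (edgeR). With library 1 as the only FGF19WT sample 1 of 12 was called lower, again Cyp7a1, with 9 negative values and a median of -0.34. Of 16 genes that control the pathway, among them the bile acid receptor gene Nr1h4 and the FGF19 receptor genes Fgfr4 and Klb, 0 were called in edgeR in any of the 3 comparisons, with medians of -0.16, 0.01 and 0.18 for FGF19WT against vehicle, FGF19ΔKLB against vehicle and FGF19ΔKLB against FGF19WT. Nr1h4, chosen after its values were seen, was lowest in FGF19WT libraries 2 and 3, with 36.1 and 45.8 CPM against 123 to 192 CPM elsewhere.

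Other genes of the peroxisome, where Amacr, Acox2 and Hsd17b4 work, were mostly not called. Of 14 genes of peroxisome assembly 0 were called in edgeR in any comparison, with medians of -0.35, -0.16 and 0.15 in the order above. Of 14 genes of peroxisomal fatty acid oxidation 1 was called, lower in FGF19ΔKLB than in vehicle. This was Crot, the carnitine octanoyltransferase, which fell by 0.97 (SE 0.174, edgeR adjusted p = 0.0461), from 508 to 636 CPM in vehicle to 233 to 328. Among close relatives of the members by sequence family, 9 or 10 of 11 were tested and 0 were called in edgeR. Among 14 male-biased liver genes 2 were called lower with FGF19ΔKLB, Cyp4a12a and Cyp4a12b. The list did not move as a whole: 10 log2 fold changes were negative and 4 positive, from -8.86 to 2.54. Its summed level overlapped, at 1860 to 2514 CPM in vehicle and 1170 to 2324 with FGF19ΔKLB. Cyp4a12a stood at 78.9 to 309 CPM in vehicle and 0.249 to 1.38 CPM with FGF19ΔKLB. Cyp7b1, whose level in mouse liver is known to be higher in males, was not on that list, and a link to its genes was not tested.

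Profiles over the 9 libraries, each centred on its vehicle mean, were compared by the root mean square difference in log2 CPM among 9578 genes with at least 5 CPM on average. The members closest to each other were Cyp27a1 and Cyp7b1 at 0.422, Cyp7b1 and Hsd3b7 at 0.433, and Acox2 and Hsd17b4 at 0.466, and the farthest pair was Akr1d1 and Amacr at 2.96. The nearest genes were Cpt1b at 0.270 for Cyp27a1, Ugdh at 0.339 for Cyp7b1, Kcnj8 at 0.217 for Hsd3b7 and Lrit1 at 0.236 for Akr1d1. They were Prdx3 at 0.147 for Amacr, Dlg5 at 0.0938 for Acox2, Slc25a20 at 0.101 for Hsd17b4 and Dpyd at 0.173 for Baat. For Cyp7b1 the third nearest was the pericentral marker Cyp2e1 at 0.417, and for Akr1d1 the second nearest was the Kupffer cell marker Vsig4 at 0.254. The points of these profiles share their libraries, and the distances are a description.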

How the data were processed

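Per the file headers, the deposited table holds, for each gene and library, an expected count and an FPKM value computed by the authors. The submitters' processing notes name Bowtie 0.12.2, HISAT2 2.0, StringTie 1.3.0 and the build mm8, without a role for each. All 28517 gene identifiers, chromosomes and starts equal GENCODE M21, so coordinates are GRCm38. The deposited counts favour multiples of 4, so 1 read pair gives about 4 counts.

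From these values, counts were rounded and fitted with edgeR 4.0.16 (R 4.3.3) by quasi-likelihood with TMM factors, a robust fit, and the edgeR low-count filter. Each comparison used the 6 libraries of its 2 groups (4 residual degrees of freedom), with group as the only term. A gene was called at a Benjamini-Hochberg adjusted p under 0.05 over all genes tested. CPM values carry TMM factors. Ratios of FPKM were tested by exact two-sided permutation. Alternatives were all 9 libraries in 1 fit, no filter, a filter of 5 CPM in 3 libraries, size factors of DESeq2 1.42.0 in place of TMM, its Wald test, limma 3.58.1 on log2(FPKM + 1) for genes with a mean FPKM of at least 1, counts divided by 4, the replicate number as a block, leaving out each library, and leaving out FGF19WT libraries 2 and 3. The procedure was tested on simulated data.

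The members, gene lists, tests and the choice of 6-library fits were made with earlier results of these data known. Named genes are the members, Cyp7a1, Cyp8b1, up to 3 called genes of each other list per comparison, the nearest profiles and overlapping genes. The defining cell markers albumin, Glul, Cyp2f2, Clec4f and Lrat are also named. Outside these rules are Nr1h4, Fgfr4 and Klb of the control list and Reln of the stellate list. Of these, Nr1h4 and Reln were picked after their values were seen. Not every nearest profile is reported here. Motif letters were chosen after the values were seen.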

Additional observations from a re-analysis of the deposited data

How the results depend on the processing

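In FGF19ΔKLB against vehicle the count of called members was 0 with the error of all 9 libraries, at log2 fold changes of -1.24 for Cyp27a1 and -1.31 for Cyp7b1, and 5 by DESeq2, which added Hsd3b7 (-0.87), Hsd17b4 (-0.57) and Baat (-0.58). limma added Hsd3b7 (-1.04). Leaving out each library gave 0 to 2 called members, with log2 fold changes from -1.38 to -1.09 for Cyp27a1, from -1.36 to -1.22 for Cyp7b1 and from -0.15 to 0.09 for Acox2. In FGF19WT against vehicle that count was 0 to 5, and in FGF19ΔKLB against FGF19WT 0 to 7, where DESeq2 gave 2 (Cyp7b1 at -1.89 and Hsd3b7 at -1.61). DESeq2 gave no adjusted p for Akr1d1 in either comparison with FGF19WT.

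Without 1 library at a time, FGF19WT against vehicle ranged from -0.35 to 0.40 for Cyp27a1, 0.10 to 0.78 for Cyp7b1, -0.12 to 0.16 for Acox2, 0.44 to 1.07 for Hsd3b7, 1.24 to 2.04 for Amacr, -4.22 to -0.97 for Akr1d1, -1.46 to -0.53 for Slc27a5 and -2.49 to -1.19 for Baat. FGF19ΔKLB against FGF19WT ranged from -1.65 to -0.90 for Cyp27a1, -2.10 to -1.41 for Cyp7b1, -1.94 to -1.31 for Hsd3b7, 0.56 to 3.81 for Akr1d1, -2.11 to -1.31 for Amacr, -0.16 to 0.09 for Acox2, -0.27 to 0.02 for Hsd17b4, 0.30 to 1.23 for Slc27a5 and 0.60 to 1.90 for Baat. The log2 ratio of Cyp7b1 to Cyp7a1 ranged from 0.48 to 2.62 for FGF19WT against vehicle and from -0.39 to 1.75 between the agents, and that of Cyp7b1 to Cyp27a1 from -0.25 to 0.06 for FGF19ΔKLB against vehicle. With FGF19WT library 1 alone, the sign against vehicle changed for Cyp27a1 (-1.05), Cyp7b1 (-0.03), Hsd3b7 (-0.40), Amacr (-0.24) and Acox2 (-0.14), and against FGF19ΔKLB for Akr1d1 (-0.36), Amacr (0.17), Acox2 (0.10), Hsd17b4 (0.11), Slc27a5 (-0.20) and Baat (-0.04). Cyp27a1 in FGF19WT against vehicle also changed sign by limma (-0.06). The cause of these changes was not tested.

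Correlations between same-numbered libraries were small: -0.028 to -0.021 for FGF19WT and vehicle, 0.030 to 0.064 for FGF19ΔKLB and vehicle, and -0.048 to 0.147 for the 2 agents. Those between other numbers were 0.007 to 0.020, -0.057 to 0.015 and -0.178 to 0.138. For FGF19ΔKLB and vehicle the same-numbered values were thus all above the others. The main fits did not take the numbers as pairs. With the replicate number as a block, the 2 members called in FGF19ΔKLB against vehicle were again Cyp27a1 (-1.26, edgeR adjusted p = 0.0323) and Cyp7b1 (-1.31, 0.0446), while the count over all genes was 103 in place of 292. Cyp27a1 in FGF19WT against vehicle was -0.08 with the block. Akr1d1 was -3.04 with the block and -2.64 by limma in FGF19WT against vehicle, and 2.57 and 2.07 in FGF19ΔKLB against FGF19WT.

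With 3 libraries per group and FGF19WT libraries that differ this much, comparisons with FGF19WT have wide intervals, and a p past no threshold does not show equal levels. Cyp7b1 rests on 334 to 2098 counts per library, the fewest of the 9 members in vehicle and FGF19ΔKLB liver.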
